A study of Mus musculus with 24 samples.

Results

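Of 24 tumours, 12 set brequinar given with anti-PD-1 (BRQ+PD-1, 6 tumours) against a control antibody (IgG2a, 6 tumours), and were chosen by the labels of their columns in the count table. All tumours were D4M tumours, from a mouse melanoma line, grown in wild-type C57BL/6 mice. The BRQ+PD-1 mice were injected intraperitoneally with brequinar and an antibody against PD-1, and the IgG2a mice with an IgG2a antibody alone. The remaining 12 tumours, 6 from mice given brequinar with IgG2a (BRQ+IgG2a) and 6 given anti-PD-1 alone (PD-1), entered the fit and are used below only to place the BRQ+PD-1 values. The labels give no dose, time, age or sex, and whether a tumour shared a cage or injection day with another is not stated.

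Brequinar inhibits dihydroorotate dehydrogenase, the mitochondrial enzyme encoded by Dhodh that makes orotate for de novo pyrimidine synthesis, and so limits the nucleotides that dividing cells need. PD-1 is an inhibitory receptor on activated T cells, and an antibody that blocks it can release T cells in tumours, where interferon gamma made by lymphocytes induces antigen presentation genes, guanylate-binding proteins, chemokines and the PD-1 ligand PD-L1 (Cd274). The comparison asks, per the design text, what both agents together do to gene expression in the tumour and its surroundings.

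Libraries of the 12 tumours held 19.1 to 28.9 M counts in BRQ+PD-1 and 22.8 to 29.4 M counts in IgG2a, and CPM below are counts per M of that total. A level of 1 CPM thus stood for 19.1 to 29.4 counts. Replicates 2 and 3 of IgG2a were rich in skeletal muscle transcripts: Acta1, the actin of skeletal muscle, stood at 4554 and 14072 CPM there, against 0.0368 to 207 CPM in the 6 BRQ+PD-1 tumours and 0.861 to 64.5 CPM in the other 4 IgG2a tumours. The first principal component of all 24 libraries (42.4% of the variance) set these and 2 more muscle-rich libraries of the other groups apart, so counts are also given without the 4 muscle-rich libraries. The tumours carried little of the melanocyte programme: of 12 melanocyte differentiation genes 2 passed the filter on low counts, and Pmel, a melanosome matrix protein, averaged 0.546 ± 0.316 CPM in BRQ+PD-1 and 0.428 ± 0.155 CPM in IgG2a (SD, n = 6 each). Mitf, the lineage transcription factor, was present, with 15.2 to 48.2 CPM in BRQ+PD-1 tumours (median 23.4), against 12.8 to 16.8 CPM in IgG2a tumours (median 14.0), and did not pass the test (log2 fold change 0.89 ± 0.28, adjusted p = 0.0742 by edgeR's quasi-likelihood test).

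Of 16029 genes tested, 627 (3.91%) were called at an adjusted p under 0.05, 398 (2.48%) higher and 229 (1.43%) lower in BRQ+PD-1 tumours than in IgG2a tumours. In bulk tissue fewer cells of a type and less RNA per cell cannot be told apart, so each change below is a change in the share of tumour RNA. The CPM of the groups did not overlap for 229 genes (1.43%) that were higher and for 133 (0.83%) that were lower. Without the muscle-rich libraries 404 of 16179 genes were called (2.5%), 330 (2.04%) higher and 74 (0.457%) lower, and 285 were called in both fits, 226 higher and 59 lower. Leaving out 1 of the 12 tumours at a time gave 256 to 783 calls, and 164 rises and 42 falls were called in all 12 fits. The count was lower by over 1.5 times without BRQ+PD-1 replicates 1 (393), 2 (355) or 3 (263) and without IgG2a replicates 1 (260) or 3 (256).

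**Figure D1:**
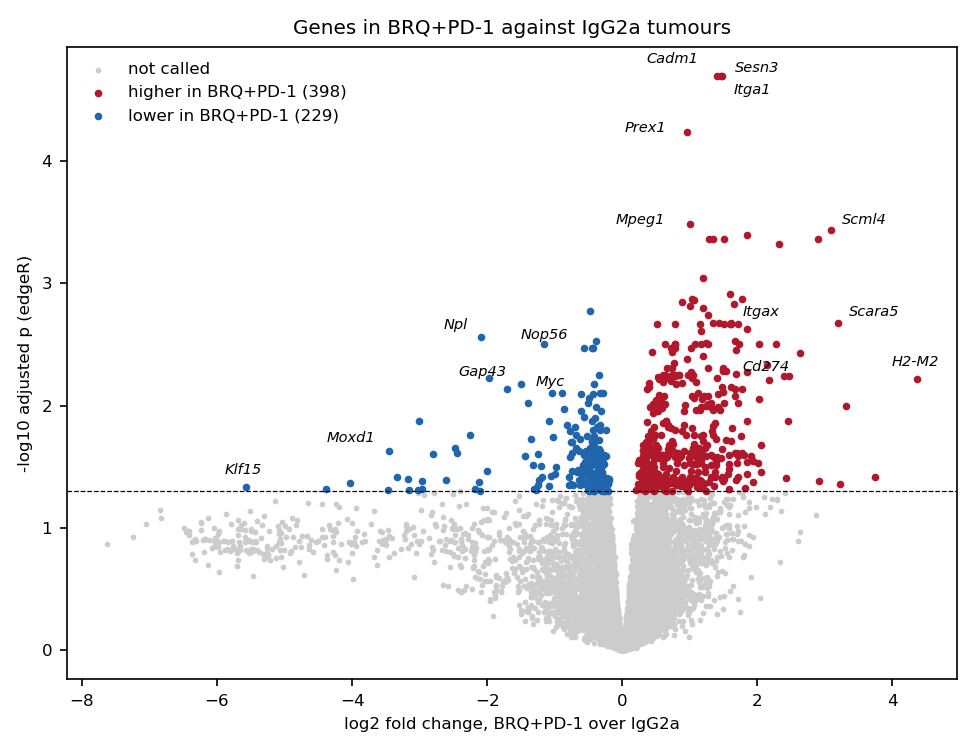
Log2 fold change of each of 16029 genes in BRQ+PD-1 over IgG2a tumours (6 each), plotted against the negative log10 of the adjusted p from edgeR. Red points are the 398 genes called higher, blue points the 229 called lower, and the dashed line marks an adjusted p of 0.05. The smallest adjusted p-values belong to rises, with Sesn3, Cadm1 and Itga1 at 2.02e-05.

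H2-M2, a nonclassical MHC class I gene, showed the largest rise among called genes at 1 CPM or more: 1.18 to 26.2 CPM in BRQ+PD-1 tumours (median 7.66), against 0 to 0.758 CPM in IgG2a tumours (median 0.646). All BRQ+PD-1 tumours lay above all IgG2a tumours, with BRQ+PD-1 replicate 3 far above the rest, and the log2 fold change was 4.36 ± 0.85 (SE; edgeR adjusted p = 0.00605). Scara5, a receptor that takes up ferritin, stood at 9.62 to 62.9 CPM in BRQ+PD-1 tumours (median 34.7), against 1.17 to 10.2 CPM in IgG2a tumours (median 2.78), a log2 fold change of 3.20 ± 0.52 (edgeR adjusted p = 0.0021). Its groups overlap in that BRQ+PD-1 replicate 1, the lowest of its group, lies just below IgG2a replicate 1, and the call held in 12 of 12 fits that each left out 1 tumour.

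Scml4, a gene of the Polycomb family, stood at 10.2 to 28.3 CPM in BRQ+PD-1 tumours (median 18.5), against 0.920 to 3.86 CPM in IgG2a tumours (median 1.91), with a log2 fold change of 3.10 ± 0.42. Tmem26, a transmembrane protein gene, stood at 2.44 to 6.94 CPM in BRQ+PD-1 tumours (median 3.41), against 0.131 to 1.001 CPM in IgG2a tumours (median 0.592) (2.90 ± 0.40). Sh3rf3, a ring-finger ubiquitin ligase gene, stood at 1.68 to 7.49 CPM in BRQ+PD-1 tumours (median 3.06), against 0.138 to 0.964 CPM in IgG2a tumours (median 0.609) (2.62 ± 0.48). In these genes the groups did not overlap, and each was called by edgeR in all fits that left out 1 tumour. Ighv1-82, an immunoglobulin variable segment, had its rise carried largely by BRQ+PD-1 replicate 3, with 0.155 to 7.82 CPM in BRQ+PD-1 tumours (median 0.678), against 0 to 0.552 CPM in IgG2a tumours (median 0.0407), and it was called in 5 of 12 such fits. Apol7c, an apolipoprotein L gene, stood at 0.272 to 4.55 CPM in BRQ+PD-1 tumours (median 1.99), against 0 to 0.759 CPM in IgG2a tumours (median 0.225). The locus AC166110.3 stood at 0.994 to 2.95 CPM in BRQ+PD-1 tumours (median 1.57), against 0 to 0.964 CPM in IgG2a tumours (median 0.275). Each of these last genes was called in 4 of 12 such fits.

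The genes with the smallest p-values, chosen after their values were seen, were Sesn3, Cadm1 and Itga1. Sesn3, a stress-inducible regulator of the nutrient sensor mTORC1, stood at 163 to 258 CPM in BRQ+PD-1 tumours (median 207), against 60.01 to 94.3 CPM in IgG2a tumours (median 75.8), a log2 fold change of 1.48 ± 0.16 (edgeR adjusted p = 2.02e-05). Cadm1, a cell adhesion molecule, stood at 56.8 to 76.8 CPM in BRQ+PD-1 tumours (median 66.4), against 21.6 to 29.5 CPM in IgG2a tumours (median 23.5) (1.41 ± 0.15; edgeR adjusted p = 2.02e-05). Itga1, the alpha chain of a collagen-binding integrin, stood at 75.5 to 102 CPM in BRQ+PD-1 tumours (median 82.9), against 22.8 to 42.6 CPM in IgG2a tumours (median 31.0) (1.46 ± 0.16; edgeR adjusted p = 2.02e-05). In all 3 the lowest BRQ+PD-1 tumour exceeded the highest IgG2a tumour, and without the muscle-rich libraries the log2 fold changes were 1.35, 1.55 and 1.39.

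Further genes among those with the smallest p-values, likewise chosen after their values were seen, follow. Mpeg1, the perforin-like protein of phagocytes, averaged 384 ± 56.0 CPM in BRQ+PD-1 and 192 ± 27.6 CPM in IgG2a (SD, n = 6 each; log2 fold change 1.01 ± 0.13). Cybb, the catalytic subunit of the phagocyte NADPH oxidase, averaged 140.0 ± 34.6 CPM in BRQ+PD-1 and 58.0 ± 6.71 CPM in IgG2a (1.28 ± 0.18). Cysltr2, a receptor for cysteinyl leukotrienes, averaged 3.09 ± 0.766 CPM in BRQ+PD-1 and 0.862 ± 0.257 CPM in IgG2a (1.84 ± 0.25). Prex1, a guanine nucleotide exchange factor for Rac, averaged 96.9 ± 17.9 CPM in BRQ+PD-1 and 50.2 ± 5.33 CPM in IgG2a (0.96 ± 0.11). Ptgfrn, an immunoglobulin-family membrane protein, averaged 249 ± 51.2 CPM in BRQ+PD-1 and 99.5 ± 28.9 CPM in IgG2a (1.34 ± 0.19). For each of these genes the groups did not overlap, and each was called by edgeR in all 12 fits that left out 1 tumour.

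**Figure D2:**
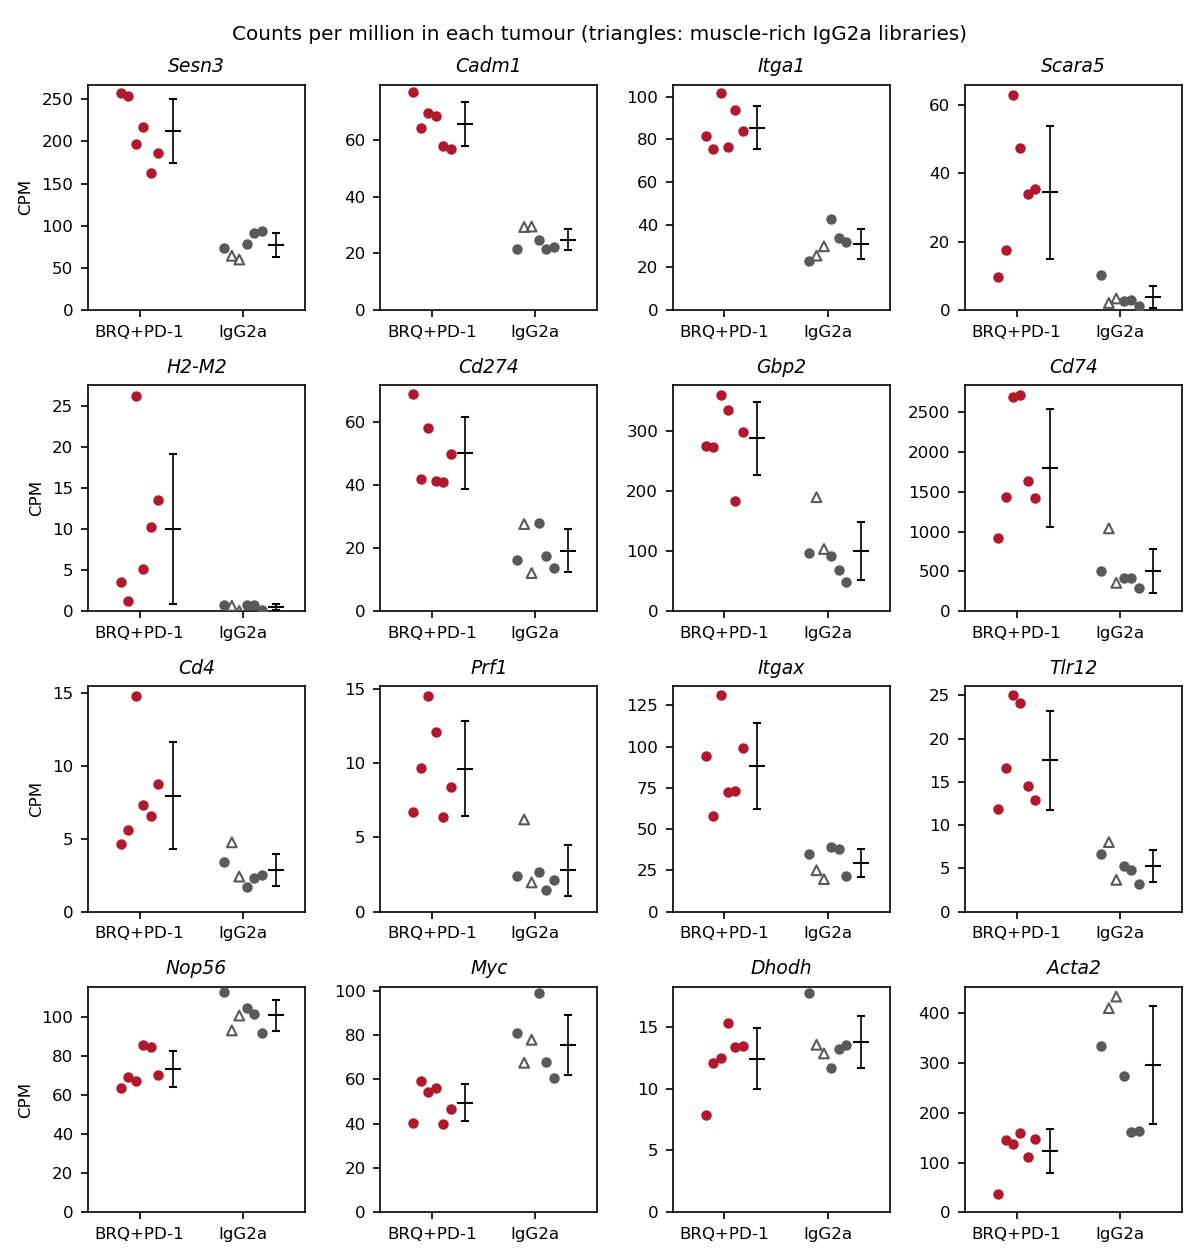
CPM of 16 named genes in each of the 6 BRQ+PD-1 (left, red) and 6 IgG2a (right, grey) tumours; triangles mark the 2 muscle-rich IgG2a tumours, and the bar with whiskers is the mean ± SD. Sesn3, Cadm1, Itga1, Cd274 and Itgax separate the groups completely, Nop56 and Myc lie lower in BRQ+PD-1, and Dhodh overlaps.

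The guanylate-binding proteins, GTPases that interferon gamma induces and that act against intracellular microbes, had the highest share of called members among the lists: 9 of the 11 tested were called higher and none lower, against 2.48% of all genes higher, with a median log2 fold change of 1.37 against 0.01 for all genes. Gbp2 stood at 183 to 359.8 CPM in BRQ+PD-1 tumours (median 286), against 48.9 to 189 CPM in IgG2a tumours (median 93.9), with 1 BRQ+PD-1 tumour just below IgG2a replicate 2 (log2 fold change 1.53 ± 0.29; edgeR adjusted p = 0.0052). Gbp7 stood at 77.3 to 146 CPM in BRQ+PD-1 tumours (median 115), against 45.7 to 81.8 CPM in IgG2a tumours (median 50.8) (1.05 ± 0.20; edgeR adjusted p = 0.00558), and Gbp9 at 65.1 to 114 CPM in BRQ+PD-1 tumours (median 91.2), against 36.7 to 57.8 CPM in IgG2a tumours (median 43.4) (1.02 ± 0.19; edgeR adjusted p = 0.00529), without overlap. With the muscle-rich libraries left out 10 of 11 were called, with a median of 1.68. Gbp2b, not called with all libraries (2.87 ± 0.92, adjusted p = 0.0783), changed by 4.29 ± 1.02, adjusted p = 0.03 on the log2 scale by edgeR in that fit. Of the 11 genes, 6 were called without BRQ+PD-1 replicate 3, with a replicate block in the fit or with no expression filter. Summed over the 11 genes, BRQ+PD-1 tumours held 542 to 1009 CPM and IgG2a tumours 198 to 539.6 CPM, without overlap. Some members of this family, and of the Tgtp and H2 families below, are similar copies between which reads could be split, so single values are uncertain.

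The immunity-related GTPases, which share that role, had 3 of 7 members higher and none lower, with a median of 0.98. This count and those of the lists below stand against 2.48% of all genes called higher and 1.43% lower. Without the muscle-rich libraries the shares of all genes were 2.04% and 0.457%. Tgtp2 stood at 44.2 to 88.8 CPM in BRQ+PD-1 tumours (median 61.4), against 16.5 to 45.6 CPM in IgG2a tumours (median 27.4) (log2 fold change 1.26 ± 0.26; edgeR adjusted p = 0.00838), and Iigp1 at 107 to 235 CPM in BRQ+PD-1 tumours (median 183), against 32.2 to 124 CPM in IgG2a tumours (median 58.8) (edgeR adjusted p = 0.00954). Tgtp1 averaged 18.9 ± 6.49 CPM in BRQ+PD-1 and 6.26 ± 3.67 CPM in IgG2a (1.59 ± 0.41). The fit without the muscle-rich libraries called 5 of 7 with a median of 1.48, and that without IgG2a replicate 2 called 6 of 7. The count was 2 without BRQ+PD-1 replicate 3 or 6 or IgG2a replicate 1, 3, 4 or 5.

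Promoter sequences of Gbp2, Gbp7 and Tgtp2 are shown because these genes rose together and interferon genes often carry a response element near their start. Each is 300 bases from RefSeq (GRCm38.p6), 250 bases before to 50 after the start, read 5′ to 3′ on the gene's strand; Gbp2 lies at chr3:142620413-142620712 (+), Gbp7 at chr3:142530086-142530385 (+) and Tgtp2 at chr11:49064163-49064462 (-). Capitals mark matches on either strand to the core of the interferon-stimulated response element (GAAA and GAAA with any 2 bases between) or to the gamma-activated site (TTC and GAA with any 3 bases between), and no matches overlapped.
Gbp2: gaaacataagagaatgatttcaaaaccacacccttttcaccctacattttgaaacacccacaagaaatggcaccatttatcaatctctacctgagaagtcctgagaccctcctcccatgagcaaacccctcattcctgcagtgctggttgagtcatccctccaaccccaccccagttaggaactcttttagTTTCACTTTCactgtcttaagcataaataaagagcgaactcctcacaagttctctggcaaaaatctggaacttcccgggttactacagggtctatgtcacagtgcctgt
Gbp7: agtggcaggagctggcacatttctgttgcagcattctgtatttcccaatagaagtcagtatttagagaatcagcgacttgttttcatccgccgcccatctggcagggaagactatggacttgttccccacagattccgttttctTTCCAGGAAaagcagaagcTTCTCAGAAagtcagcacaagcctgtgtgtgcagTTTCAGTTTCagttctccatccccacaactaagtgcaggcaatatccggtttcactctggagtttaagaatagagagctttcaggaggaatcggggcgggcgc
Tgtp2: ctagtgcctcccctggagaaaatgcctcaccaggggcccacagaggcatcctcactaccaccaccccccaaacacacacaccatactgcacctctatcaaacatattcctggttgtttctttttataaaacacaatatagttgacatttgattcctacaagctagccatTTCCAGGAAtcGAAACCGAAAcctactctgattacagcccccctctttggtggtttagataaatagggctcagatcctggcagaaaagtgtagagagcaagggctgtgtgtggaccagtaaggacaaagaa
Each of these windows holds 1 response element core, Gbp7 also holds 2 gamma-activated sites and Tgtp2 1. The core stood in 5 of 5 guanylate-binding protein genes and in 5 of 6 immunity-related GTPase genes with a promoter in the table, and in 13 of 22 type I interferon-stimulated genes, against 3.99% of 27025 genes. It stood in 3 of 14 genes of MHC class I presentation and in 32 of 270 (11.9%) of the genes called higher, against 3.97% of 11409 genes tested; for the gamma-activated site the shares were 9.63% and 8.29%. A match describes the letters in these windows and is not evidence of binding.

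Type I interferon-stimulated genes had 6 of 31 members called higher and none lower, all 31 with a positive log2 fold change and a median of 0.52. Dtx3l, a ubiquitin ligase, stood at 61.5 to 107 CPM in BRQ+PD-1 tumours (median 80.9), against 38.3 to 57.6 CPM in IgG2a tumours (median 48.9), without overlap (0.78 ± 0.13; edgeR adjusted p = 0.00217). Its partner Parp9 stood at 56.5 to 84.1 CPM in BRQ+PD-1 tumours (median 73.5), against 40.3 to 61.2 CPM in IgG2a tumours (median 44.7) (0.64 ± 0.13). Parp14, another poly(ADP-ribose) polymerase family member, stood at 68.5 to 126 CPM in BRQ+PD-1 tumours (median 99.5), against 49.0 to 78.2 CPM in IgG2a tumours (median 55.1) (0.78 ± 0.15). In both IgG2a replicate 2 was the high IgG2a tumour. The count was 5 without the muscle-rich libraries and 3 without BRQ+PD-1 replicate 2 or 3 or IgG2a replicate 1, 3, 4 or 5. Of 12 genes of interferon gamma and its signalling, 1 was called higher and none lower, against 2.48% and 1.43% of all genes. Ifng itself stood at 0.504 to 2.94 CPM in BRQ+PD-1 tumours (median 0.938), against 0.0353 to 2.11 CPM in IgG2a tumours (median 0.266) and was not called (1.17 ± 0.66, adjusted p = 0.293 by edgeR).

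MHC class I presentation had 3 of 17 members called higher and none lower, against 2.48% and 1.43% of all genes, with a median of 0.50. Nlrc5, the transcription factor that induces class I genes, stood at 79.7 to 129.9 CPM in BRQ+PD-1 tumours (median 103), against 49.8 to 80.9 CPM in IgG2a tumours (median 60.5) (0.76 ± 0.15; edgeR adjusted p = 0.00569). B2m, the shared light chain, averaged 2208 ± 272 CPM in BRQ+PD-1 and 1602 ± 231 CPM in IgG2a (0.47 ± 0.13). Erap1, the peptide-trimming aminopeptidase, averaged 117 ± 19.6 CPM in BRQ+PD-1 and 85.0 ± 8.51 CPM in IgG2a (0.47 ± 0.12). H2-K1, a classical heavy chain, missed the threshold with the muscle-rich libraries in the fit (0.54 ± 0.17, adjusted p = 0.0675 by edgeR) and passed it once those libraries were left out (0.76 ± 0.16, adjusted p = 0.0122), where 6 of 17 were called. The count was 1 without BRQ+PD-1 replicate 3 or IgG2a replicates 1, 4 or 5, and 8 without IgG2a replicate 2.

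Of 11 nonclassical class I genes 5 were called higher, against 2.48% of all genes, with a median of 0.60. Besides H2-M2, H2-M3, which presents formylated peptides, stood at 39.3 to 65.2 CPM in BRQ+PD-1 tumours (median 51.7), against 29.3 to 46.0 CPM in IgG2a tumours (median 31.3) (0.60 ± 0.15), and H2-Q6 at 23.98 to 50.3 CPM in BRQ+PD-1 tumours (median 35.9), against 10.9 to 31.8 CPM in IgG2a tumours (median 17.4) (0.99 ± 0.25). Leaving out the muscle-rich libraries gave 7 calls. The count was 1 without BRQ+PD-1 replicate 3 or without IgG2a replicate 1, 4 or 5, and 3 without IgG2a replicate 3 or 6.

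MHC class II presentation had 6 of 12 members called higher and none lower, with a median of 1.27. Cd74, the invariant chain that escorts class II molecules, stood at 914 to 2717 CPM in BRQ+PD-1 tumours (median 1533), against 290.1 to 1039 CPM in IgG2a tumours (median 409) (log2 fold change 1.84 ± 0.40; edgeR adjusted p = 0.0133), and 5 of the 6 BRQ+PD-1 tumours lay above all IgG2a tumours. Ciita, the master transcription factor of class II genes, stood at 20.3 to 65.5 CPM in BRQ+PD-1 tumours (median 32.1), against 8.85 to 18.8 CPM in IgG2a tumours (median 10.3) (1.66 ± 0.40), without overlap. H2-Aa, a class II alpha chain, stood at 281 to 843 CPM in BRQ+PD-1 tumours (median 434), against 84.3 to 337 CPM in IgG2a tumours (median 119.9) (1.81 ± 0.44). H2-Ab1, a beta chain, stood at 250.4 to 991 CPM in BRQ+PD-1 tumours (median 507), against 107 to 414 CPM in IgG2a tumours (median 142) (1.68 ± 0.45). The muscle-rich libraries left out, 7 were called, with a median of 1.34. The count was 1 without BRQ+PD-1 replicate 3 or IgG2a replicate 1, 3 or 4, and 3 without IgG2a replicate 5.

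**Figure D3:**
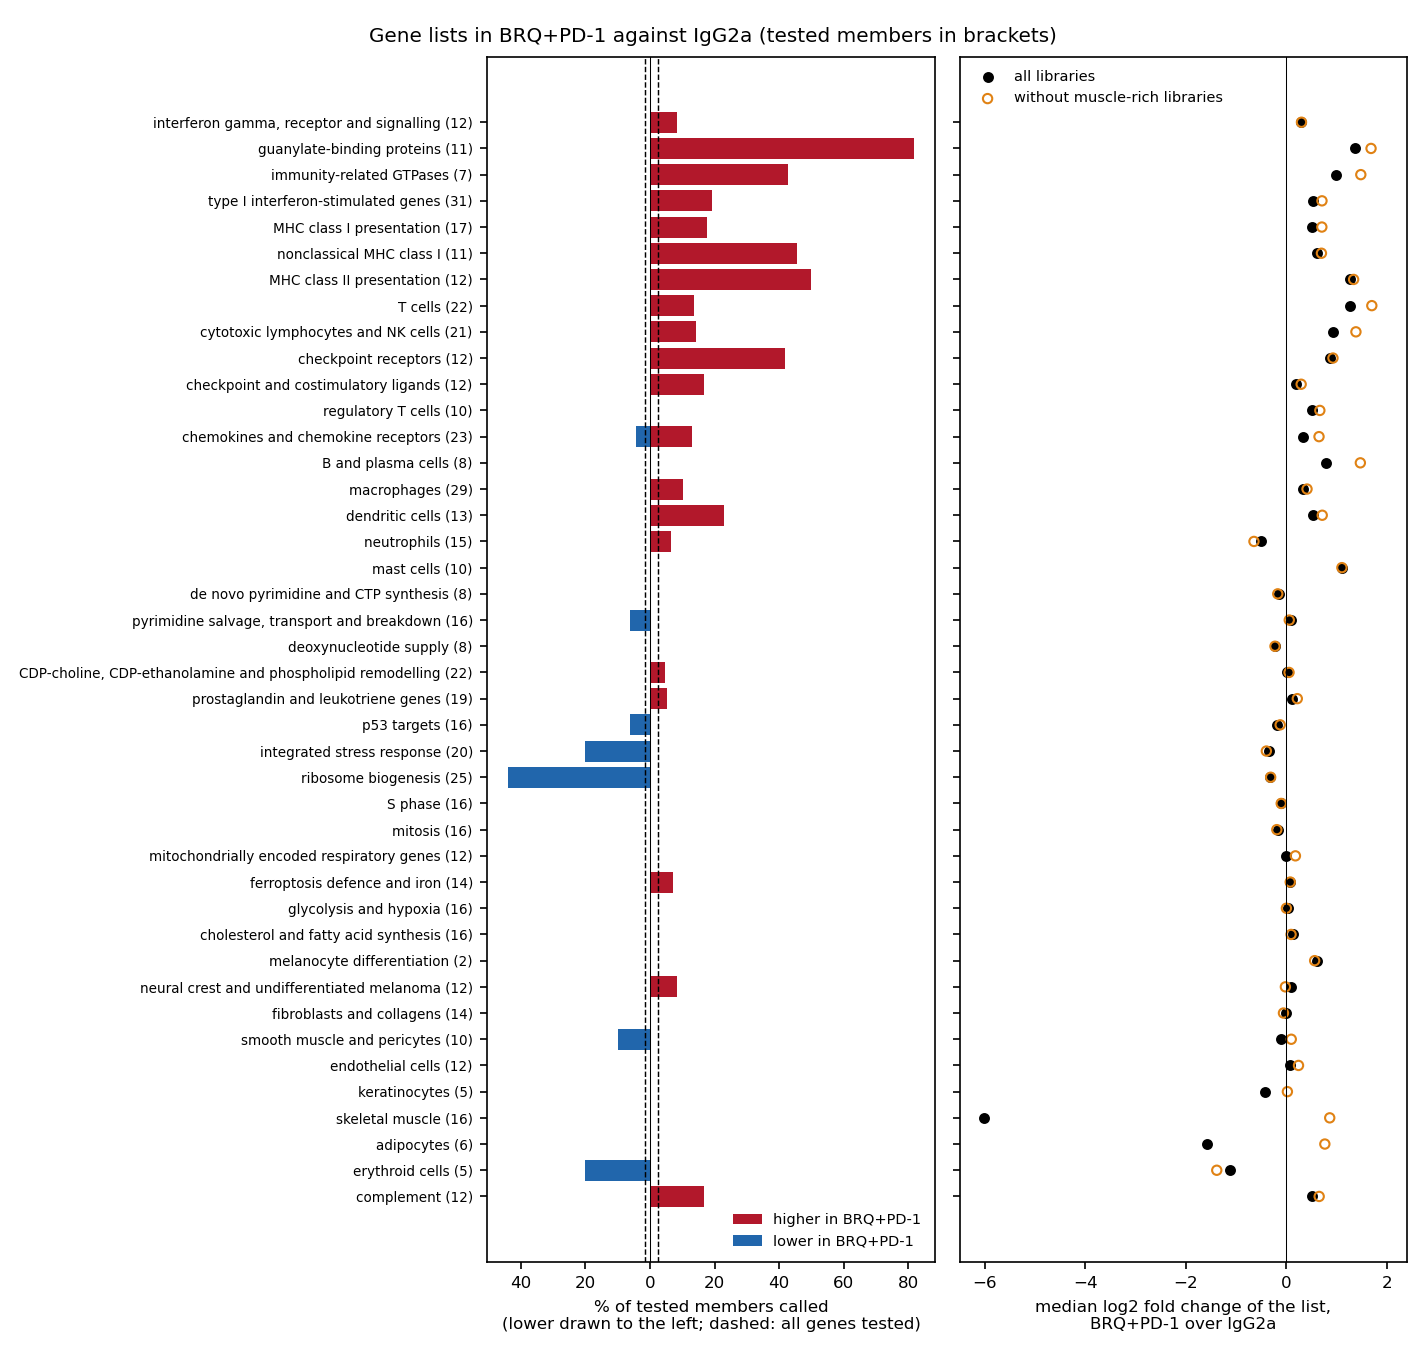
Gene lists described in the text, with the number of tested members in brackets. Left: per cent of tested members called higher (red) or lower (blue, drawn to the left) in BRQ+PD-1 tumours, with dashed lines at 2.48% and 1.43%, the shares of all genes. Right: median log2 fold change with all libraries (filled) and without the muscle-rich libraries (open). Guanylate-binding proteins and MHC class II lie farthest right on the left panel, ribosome biogenesis farthest left, and the median of skeletal muscle is -6.01 with all libraries and 0.86 without the muscle-rich ones.

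T cell genes had 3 of 22 members called higher and none lower, against 2.48% and 1.43% of all genes. Of the 22, 21 had a positive log2 fold change (median 1.27). Cd4, by which helper T cells bind class II molecules, ranged over 4.66 to 14.8 CPM in BRQ+PD-1 tumours (median 6.97), against 1.69 to 4.76 CPM in IgG2a tumours (median 2.45), so that the lowest BRQ+PD-1 tumour lay just below IgG2a replicate 2 (1.49 ± 0.28; edgeR adjusted p = 0.0052). Cd28, the costimulatory receptor, averaged 2.59 ± 0.475 CPM in BRQ+PD-1 and 1.09 ± 0.508 CPM in IgG2a (1.25 ± 0.36). Cd8a, a chain of the receptor by which cytotoxic T cells bind class I molecules, ranged over 3.45 to 21.6 CPM in BRQ+PD-1 tumours (median 11.97), against 1.48 to 10.4 CPM in IgG2a tumours (median 3.31) and missed the threshold with all libraries (1.58 ± 0.49, adjusted p = 0.0675 by edgeR), but passed it without the muscle-rich libraries (2.14 ± 0.52, adjusted p = 0.0333).

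That fit called 10 of 22 T cell genes, with a median of 1.70. IgG2a replicate 2, a muscle-rich tumour, was also the highest IgG2a tumour for this list. With a muscle covariate and all libraries, edgeR called 9 of 22. Leaving out IgG2a replicate 2 alone also gave 10, and leaving out any one of BRQ+PD-1 replicates 2, 3 and 4 or IgG2a replicates 1, 3, 4, 5 and 6 gave 1. Among the 8 largest rises of the fit without muscle-rich libraries was Tox, a transcription factor of chronically stimulated T cells (3.13 ± 0.81, adjusted p = 0.0442 by edgeR), which was not called with all libraries (2.29 ± 0.68, adjusted p = 0.0581). Themis, which tunes T cell receptor signalling, stood at 0.854 to 2.24 CPM in BRQ+PD-1 tumours (median 1.74), against 0.103 to 1.42 CPM in IgG2a tumours (median 0.319) (1.85 ± 0.47).

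Cytotoxic lymphocyte and NK cell genes had 3 of 21 members higher, with a median of 0.92, and 7 without the muscle-rich libraries. Prf1, the pore-forming perforin, stood at 6.39 to 14.5 CPM in BRQ+PD-1 tumours (median 9.03), against 1.48 to 6.21 CPM in IgG2a tumours (median 2.25) (1.78 ± 0.36; edgeR adjusted p = 0.00734). Cst7, a cystatin of cytotoxic granules, stood at 2.39 to 4.24 CPM in BRQ+PD-1 tumours (median 3.10), against 0.777 to 1.93 CPM in IgG2a tumours (median 1.16) (1.41 ± 0.29; edgeR adjusted p = 0.00807). In both the groups did not overlap. Klrc1, an NK cell lectin receptor, stood at 2.64 to 6.92 CPM in BRQ+PD-1 tumours (median 3.99), against 0.707 to 3.80 CPM in IgG2a tumours (median 0.929) (1.71 ± 0.46). IgG2a replicate 2 was the one IgG2a tumour within the BRQ+PD-1 range. Without IgG2a replicate 2 the list held 8 calls. It held 2 without BRQ+PD-1 replicate 2, 3 or 4 or IgG2a replicate 1, 3, 4, 5 or 6. Klrc1 was called in 4 of 12 fits that left out 1 tumour.

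Checkpoint receptors had 5 of 12 members higher and none lower (median 0.88), and also 5 without the muscle-rich libraries. Pdcd1, which encodes the antibody's target PD-1, stood at 3.38 to 8.93 CPM in BRQ+PD-1 tumours (median 4.55), against 0.828 to 3.38 CPM in IgG2a tumours (median 1.55) (1.71 ± 0.42; edgeR adjusted p = 0.026), with the groups touching, and was called in 8 of 12 fits that left out 1 tumour. Vsir, which encodes VISTA, stood at 74.9 to 145 CPM in BRQ+PD-1 tumours (median 119), against 50.6 to 71.8 CPM in IgG2a tumours (median 64.0). Cd244a, an NK and T cell receptor, stood at 7.59 to 12.6 CPM in BRQ+PD-1 tumours (median 10.8), against 4.69 to 6.30 CPM in IgG2a tumours (median 5.91). Entpd1, the ATP-degrading ectoenzyme CD39, stood at 48.7 to 81.3 CPM in BRQ+PD-1 tumours (median 65.7), against 32.5 to 48.4 CPM in IgG2a tumours (median 42.7). All 3 were separated between the groups, with log2 fold changes of 0.84 ± 0.16, 0.91 ± 0.20 and 0.68 ± 0.15. The list count was 3 without BRQ+PD-1 replicate 3 or IgG2a replicates 1, 3 or 5, and 8 without IgG2a replicate 2.

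Among 12 checkpoint and costimulatory ligands, 2 were called. Cd274, which encodes PD-L1, stood at 41.1 to 69.0 CPM in BRQ+PD-1 tumours (median 46.0), against 12.05 to 28.0 CPM in IgG2a tumours (median 16.9), without overlap (1.41 ± 0.27; edgeR adjusted p = 0.0059). Cd86, a ligand of CD28, stood at 13.5 to 22.3 CPM in BRQ+PD-1 tumours (median 19.1), against 8.405 to 12.9 CPM in IgG2a tumours (median 11.8), also without overlap (0.73 ± 0.14; edgeR adjusted p = 0.00558). Both calls held in all fits that left out 1 tumour, and the list median was 0.19.

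None of 10 regulatory T cell genes was called by edgeR (median 0.50, smallest adjusted p 0.0631). Foxp3, the lineage factor, stood at 0.621 to 5.04 CPM in BRQ+PD-1 tumours (median 1.94), against 0.339 to 1.77 CPM in IgG2a tumours (median 0.883) (1.18 ± 0.49, adjusted p = 0.151 by edgeR). DESeq2 called 1 and limma voom 2 regulatory T cell genes higher, and 3 had an unadjusted edgeR p under 0.05. This and the later counts at an unadjusted p stand against 3727 of all 16029 genes tested, so a few such members are common in any list. Of 8 B and plasma cell genes tested none was called by edgeR or DESeq2 (median 0.79), limma voom called 2 higher, and 1 had an unadjusted edgeR p under 0.05. Ighm, the heavy chain of IgM, stood at 7.33 to 31.2 CPM in BRQ+PD-1 tumours (median 14.4), against 3.13 to 19.9 CPM in IgG2a tumours (median 5.30) and passed only without the muscle-rich libraries (1.998 ± 0.51, adjusted p = 0.0412 by edgeR, against 1.19 ± 0.68, adjusted p = 0.303 with all).

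Of 23 chemokine and receptor genes 3 were called higher and 1 lower, against 2.48% and 1.43% of all genes. Cxcl9, an interferon gamma-induced T cell attractant, stood at 118 to 253 CPM in BRQ+PD-1 tumours (median 175), against 24.1 to 125 CPM in IgG2a tumours (median 53.1) (1.61 ± 0.37). Cxcr6, a receptor of tissue T cells, stood at 3.14 to 10.6 CPM in BRQ+PD-1 tumours (median 5.27), against 0.813 to 3.80 CPM in IgG2a tumours (median 1.65) (1.69 ± 0.43). Ccl12, a monocyte chemoattractant, was the lower one, at 15.9 to 31.3 CPM in BRQ+PD-1 tumours (median 21.8), against 28.1 to 55.4 CPM in IgG2a tumours (median 36.4) (-0.75 ± 0.21), and was not called without the muscle-rich libraries. A lower call was made in this list in 4 of 12 fits that left out 1 tumour. The list median was 0.33.

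**Figure D4:**
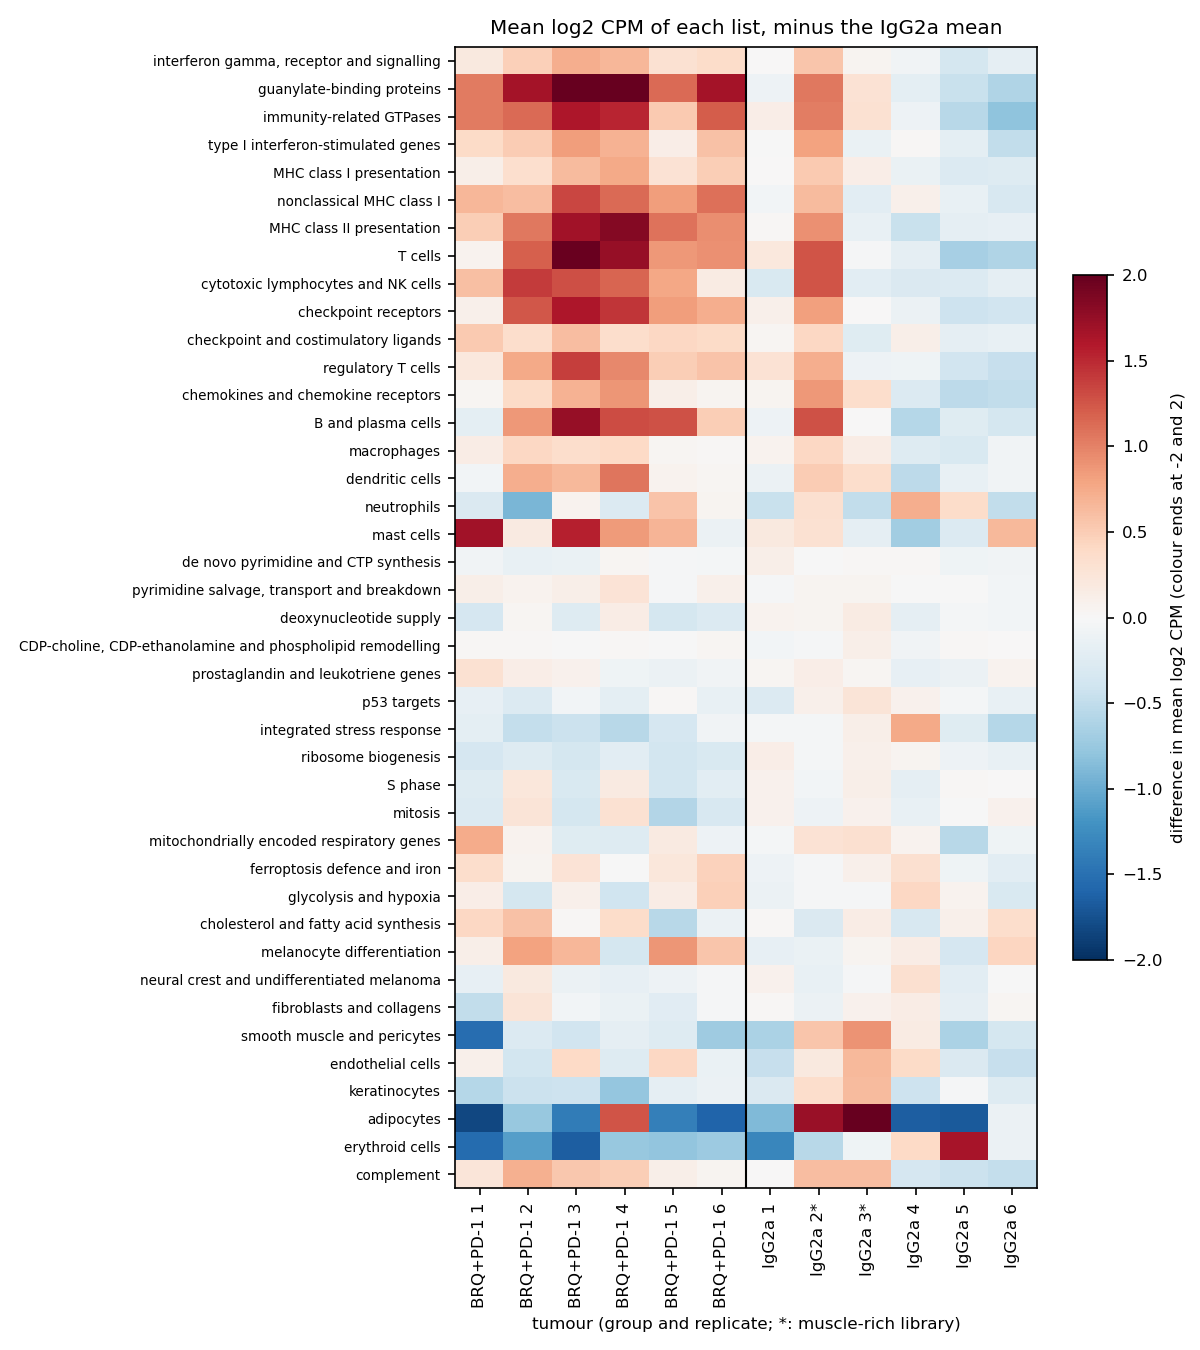
Mean log2 CPM of each gene list (rows) in each tumour (columns: 6 BRQ+PD-1, then 6 IgG2a; an asterisk marks a muscle-rich library), minus the mean over the IgG2a tumours; the colour scale ends at -2 and 2. BRQ+PD-1 tumours are red across the interferon, MHC and lymphocyte rows, except replicate 1, which is below the IgG2a mean for B and plasma cells. For T cells replicate 1 of BRQ+PD-1 lies close to that mean. IgG2a replicate 2 is red in the same rows, and ribosome biogenesis is blue in all 6 BRQ+PD-1 tumours. The skeletal muscle list is left out.

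Of myeloid genes, Mpeg1 and Cybb, in which the groups did not overlap, are described above. Of 29 macrophage genes 3 were higher, against 2.48% of all genes, with a median of 0.33. The members were chosen with earlier results of these data known. Apart from Cd300a and Tlr12, only Fcgr4 was called, so this count is no support for a rise of macrophage genes. Cd300a, an inhibitory receptor, stood at 11.3 to 20.7 CPM in BRQ+PD-1 tumours (median 14.3), against 5.69 to 8.18 CPM in IgG2a tumours (median 7.19) (1.06 ± 0.17). Tlr12, a Toll-like receptor, stood at 11.9 to 25.0 CPM in BRQ+PD-1 tumours (median 15.6), against 3.24 to 8.04 CPM in IgG2a tumours (median 5.07) (1.72 ± 0.30). Fcgr4, an activating Fc receptor, stood at 34.9 to 89.9 CPM in BRQ+PD-1 tumours (median 57.7), against 12.05 to 41.9 CPM in IgG2a tumours (median 18.97) (1.48 ± 0.40). In Cd300a and Tlr12 the groups did not overlap, and edgeR called them in all 12 fits that left out 1 tumour, but Fcgr4 in 4. Of 13 dendritic cell genes 3 were higher and none lower, 9 had a positive log2 fold change, and the median was 0.53. Summed over the list, the groups overlapped, with 462 to 781 CPM in BRQ+PD-1 tumours and 518 to 619 CPM in IgG2a tumours. Itgax, the CD11c integrin chain, stood at 58.1 to 131 CPM in BRQ+PD-1 tumours (median 83.7), against 19.7 to 39.0 CPM in IgG2a tumours (median 29.9), without overlap (1.59 ± 0.27; edgeR adjusted p = 0.00217). Zbtb46, a transcription factor of classical dendritic cells, averaged 16.6 ± 2.13 CPM in BRQ+PD-1 and 11.4 ± 2.17 CPM in IgG2a (0.54 ± 0.14). Xcr1, the chemokine receptor of cross-presenting dendritic cells, averaged 2.75 ± 1.62 CPM in BRQ+PD-1 and 0.976 ± 0.341 CPM in IgG2a (1.49 ± 0.41). Only Itgax was called without the muscle-rich libraries, and the dendritic count was 1 without BRQ+PD-1 replicate 3 or IgG2a replicates 2, 3 or 4.

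Of 15 neutrophil genes 1 was called higher and none lower, against 3.91% of all genes called either way, and the list median was -0.50. This gene, Il1b, an inflammatory cytokine, stood at 22.2 to 41.1 CPM in BRQ+PD-1 tumours (median 31.5), against 7.36 to 28.3 CPM in IgG2a tumours (median 13.7) (1.109 ± 0.31). It was called in 2 of 12 fits that left out 1 tumour. None of 10 mast cell genes was called by edgeR, DESeq2 or limma voom (median 1.10), and 8 had an unadjusted edgeR p under 0.05, against 3727 of all 16029 genes. Tpsb2, a mast cell tryptase, stood at 13.5 to 65.2 CPM in BRQ+PD-1 tumours (median 33.3), against 8.82 to 24.4 CPM in IgG2a tumours (median 15.6) (1.09 ± 0.43, adjusted p = 0.133 by edgeR), with BRQ+PD-1 replicates ranging widely. Of 12 complement genes 2 were higher, and 3 without the muscle-rich libraries. Cfb, a factor of the alternative pathway, averaged 2.21 ± 0.962 CPM in BRQ+PD-1 and 0.830 ± 0.450 CPM in IgG2a (1.40 ± 0.35). C1s1, a protease of the classical pathway, averaged 95.2 ± 21.2 CPM in BRQ+PD-1 and 66.4 ± 13.9 CPM in IgG2a (0.53 ± 0.14). Both calls were lost without BRQ+PD-1 replicate 3 or IgG2a replicates 1, 3 or 4, and 1 without BRQ+PD-1 replicate 6 or IgG2a replicate 5.

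Integrin subunits were examined as a family after their values were seen: 8 of 24 were called higher and none lower, against 2.48% and 1.43% of all genes. The family was picked after Itga1 and Itgax had been seen to be high, and the count was 7 without the muscle-rich libraries and 7 to 8 when 1 tumour was left out. Besides Itga1 and Itgax, Itga4, a lymphocyte homing chain, averaged 66.3 ± 39.97 CPM in BRQ+PD-1 and 22.2 ± 4.26 CPM in IgG2a (1.62 ± 0.27). Itga9 averaged 44.9 ± 8.27 CPM in BRQ+PD-1 and 24.4 ± 3.93 CPM in IgG2a (0.89 ± 0.14). Itgal, the alpha chain of LFA-1 on leukocytes, averaged 53.4 ± 15.2 CPM in BRQ+PD-1 and 25.4 ± 4.60 CPM in IgG2a (1.06 ± 0.22). Itgb2, its beta chain, averaged 115 ± 27.0 CPM in BRQ+PD-1 and 62.2 ± 10.6 CPM in IgG2a (0.88 ± 0.20). Itga8 averaged 7.73 ± 2.59 CPM in BRQ+PD-1 and 2.73 ± 0.676 CPM in IgG2a (1.51 ± 0.25). Itgb3, the vitronectin receptor chain, averaged 59.7 ± 29.1 CPM in BRQ+PD-1 and 23.9 ± 7.16 CPM in IgG2a (1.35 ± 0.36), the one of the 8 whose groups overlap.

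In the drug's own pathway, de novo pyrimidine and CTP synthesis, none of 8 genes was called by edgeR (median -0.14, smallest adjusted p 0.0604). DESeq2 and limma voom each called 1 lower, and 3 had an unadjusted edgeR p under 0.05, against 3727 of all 16029 genes. Dhodh, the target of brequinar, stood at 7.88 to 15.3 CPM in BRQ+PD-1 tumours (median 12.9), against 11.6 to 17.7 CPM in IgG2a tumours (median 13.4) (-0.14 ± 0.11, adjusted p = 0.471 by edgeR). Cad and Umps, the enzymes before and after it in the pathway, were measured at 94.8 ± 22.8 CPM in BRQ+PD-1 and 105 ± 14.7 CPM in IgG2a for the first and 45.1 ± 8.02 CPM in BRQ+PD-1 and 49.9 ± 5.199 CPM in IgG2a for the second. Their log2 fold changes were -0.14 ± 0.11 and -0.14 ± 0.12, and the groups of both overlapped. Among 16 genes of pyrimidine salvage and transport 1 was called, against 3.91% of all genes. It was Slc29a2, an equilibrative nucleoside transporter, which was lower, at 4.61 to 6.495 CPM in BRQ+PD-1 tumours (median 5.14), against 6.34 to 9.83 CPM in IgG2a tumours (median 8.83) (-0.65 ± 0.17). Slc29a2 was called in 6 of 12 fits that left out 1 tumour.

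Of 22 genes of phospholipid synthesis and remodelling 1 was called, a share near the 3.91% of all genes. This was Lpcat2, a lysophosphatidylcholine acyltransferase, at 34.7 to 60.1 CPM in BRQ+PD-1 tumours (median 44.1), against 25.1 to 37.1 CPM in IgG2a tumours (median 27.7) (0.65 ± 0.17). Chka and Pcyt1a, the choline kinase and the rate-limiting CTP-dependent enzyme of phosphatidylcholine synthesis, were not called (edgeR adjusted p = 0.428 and 0.119). Chka averaged 41.3 ± 3.18 CPM in BRQ+PD-1 and 46.6 ± 6.13 CPM in IgG2a, and Pcyt1a 125 ± 24.02 CPM in BRQ+PD-1 and 101 ± 6.37 CPM in IgG2a. Ptgs2, the inducible cyclooxygenase, varied more within groups than between them, with 36.3 to 1187 CPM in BRQ+PD-1 tumours (median 223), against 86.2 to 536 CPM in IgG2a tumours (median 233) (0.40 ± 0.85, adjusted p = 0.817 by edgeR). Ptger4, a prostaglandin E2 receptor, was the 1 called of 19 genes tested in the prostaglandin and leukotriene list, again near the 3.91% of all genes. It stood at 10.7 to 16.3 CPM in BRQ+PD-1 tumours (median 15.0), against 7.81 to 12.1 CPM in IgG2a tumours (median 8.87) (0.67 ± 0.17). The list leaves out Cysltr2, the leukotriene receptor described above, which was called higher (1.84 ± 0.25). Its share thus does not cover all genes of this kind. Lpcat2 and Ptger4 were each called in 6 of 12 fits that left out 1 tumour and not without the muscle-rich libraries. Of 14 genes of ferroptosis defence and iron, Scara5 was the 1 called, against 3.91% of all genes.

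Of 25 ribosome biogenesis genes 11 were called lower and none higher, against 1.43% of all genes lower, 24 had a negative log2 fold change, and the median was -0.33. Nop56, a core protein of box C/D small nucleolar particles, stood at 63.9 to 85.6 CPM in BRQ+PD-1 tumours (median 70.1), against 92.0 to 113 CPM in IgG2a tumours (median 101) (-0.45 ± 0.08; edgeR adjusted p = 0.00335). Polr1b, a subunit of RNA polymerase I, stood at 23.4 to 30.5 CPM in BRQ+PD-1 tumours (median 26.4), against 32.8 to 38.9 CPM in IgG2a tumours (median 37.3) (-0.43 ± 0.09; edgeR adjusted p = 0.00664). Myc, a transcription factor that drives ribosome genes, stood at 39.7 to 59.1 CPM in BRQ+PD-1 tumours (median 50.5), against 60.6 to 98.8 CPM in IgG2a tumours (median 72.7) (-0.61 ± 0.13; edgeR adjusted p = 0.00806). For Nop56, Polr1b and Myc all BRQ+PD-1 tumours lay below all IgG2a tumours, and edgeR called them in all 12 fits that left out 1 tumour.

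The list score, the mean log2 CPM of the 25 genes, ran from 5.84 to 6.01 in BRQ+PD-1 tumours and from 6.07 to 6.34 in IgG2a tumours, without overlap. The count was 7 without the muscle-rich libraries (median -0.31). It was 7 without BRQ+PD-1 replicate 1, 6 without replicate 2, 4 without replicate 3, 3 without IgG2a replicate 1 and 4 without IgG2a replicate 3.

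Cytosolic ribosomal protein genes, a family added after the data were seen, had 9 of 77 members called lower and none higher, against 1.43% and 2.48% of all genes. The other members did not pass the test, although all 77 log2 fold changes were negative (median -0.27). Rps6, a 40S protein, averaged 536 ± 61.3 CPM in BRQ+PD-1 and 706 ± 39.0 CPM in IgG2a (-0.39 ± 0.07; edgeR adjusted p = 0.00299). Rpl35, a 60S protein, averaged 205 ± 44.9 CPM in BRQ+PD-1 and 306 ± 25.3 CPM in IgG2a (-0.57 ± 0.10), both without overlap. The muscle-rich libraries left out, 3 were called, and leaving out 1 tumour gave 5 to 22. Mitochondrial ribosomal proteins, also added, had 73 of 77 negative (median -0.24) and 8 called lower, 1 without the muscle-rich libraries and 1 to 15 when 1 tumour was left out. With relative log expression factors the medians were -0.28 and -0.25, and that of all genes 0.00.

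Of 20 targets of the integrated stress response, induced when translation is slowed, 4 were called lower, none higher, and the median was -0.35. Sesn2, a sestrin, stood at 35.0 to 51.3 CPM in BRQ+PD-1 tumours (median 39.6), against 46.7 to 88.8 CPM in IgG2a tumours (median 62.9) (-0.66 ± 0.17). Psph, the last enzyme of serine synthesis, averaged 17.999 ± 4.96 CPM in BRQ+PD-1 and 28.0 ± 6.70 CPM in IgG2a (-0.65 ± 0.18). Shmt2, a mitochondrial one-carbon enzyme, averaged 113 ± 22.2 CPM in BRQ+PD-1 and 164 ± 31.9 CPM in IgG2a (-0.54 ± 0.15). No target was called without the muscle-rich libraries or without BRQ+PD-1 replicates 1, 3, 5 or 6 or IgG2a replicates 1, 3 or 4, and 1 without BRQ+PD-1 replicate 2. Of 16 p53 targets 1 was called, against 3.91% of all genes. It was Aen, an exonuclease, which was lower, averaging 30.8 ± 3.86 CPM in BRQ+PD-1 and 41.5 ± 2.48 CPM in IgG2a (-0.43 ± 0.12). Aen was called in 2 of 12 fits that left out 1 tumour.

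By edgeR and DESeq2 none of 16 S phase genes (median -0.11) and none of 16 mitosis genes (median -0.17) was called. Limma voom called 1 S phase and 3 mitosis genes lower, and at an unadjusted edgeR p under 0.05 there were 1 and 0. Mki67, a marker of cycling cells, stood at 179 to 478 CPM in BRQ+PD-1 tumours (median 230.5), against 210.4 to 294 CPM in IgG2a tumours (median 256), with BRQ+PD-1 replicates spread wider than IgG2a (0.16 ± 0.21, adjusted p = 0.688 by edgeR). Pcna, the replication clamp, averaged 147 ± 23.2 CPM in BRQ+PD-1 and 159 ± 6.09 CPM in IgG2a. Mcm6, a replicative helicase subunit, averaged 155 ± 30.3 CPM in BRQ+PD-1 and 164 ± 19.1 CPM in IgG2a. The lists of deoxynucleotide supply, mitochondrially encoded respiratory genes, glycolysis, cholesterol synthesis, fibroblasts, endothelial cells, keratinocytes and adipocytes also had no called member by edgeR. Of their 89 genes 12 had an unadjusted edgeR p under 0.05, against 3727 of all 16029 genes. DESeq2 called 2 of the 89 higher and 3 lower, and limma voom 4 higher and 4 lower. The DESeq2 falls were 3 of the 8 genes of deoxynucleotide supply. Of 12 genes of neural crest and undifferentiated melanoma (median 0.09), Zeb2, a transcription factor of mesenchymal and immune cells, was higher, averaging 172 ± 31.9 CPM in BRQ+PD-1 and 127 ± 21.3 CPM in IgG2a (0.45 ± 0.12). Of 5 erythroid genes (median -1.12), Hba-a2, an alpha globin, was lower, averaging 1.80 ± 0.777 CPM in BRQ+PD-1 and 7.92 ± 5.35 CPM in IgG2a (-2.13 ± 0.58). Each was the 1 called member of its list, against 3.91% of all genes called. Zeb2 was not called without the muscle-rich libraries, whereas Hba-a2 was (-2.28, edgeR adjusted p = 0.04997). Of 12 fits that left out 1 tumour, Zeb2 was called in 4 and Hba-a2 in 3.

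Of the other falls, Moxd1, a copper monooxygenase-like gene, stood at 0 to 0.398 CPM in BRQ+PD-1 tumours (median 0.207), against 0.941 to 3.91 CPM in IgG2a tumours (median 1.62), without overlap (-3.45 ± 0.83; edgeR adjusted p = 0.0234). Npl, the lyase that breaks down sialic acid, stood at 2.32 to 5.44 CPM in BRQ+PD-1 tumours (median 3.38), against 7.20 to 25.5 CPM in IgG2a tumours (median 15.2) (-2.09 ± 0.36; edgeR adjusted p = 0.00275). Gap43, a growth-cone protein, stood at 1.24 to 3.79 CPM in BRQ+PD-1 tumours (median 3.38), against 6.75 to 10.3 CPM in IgG2a tumours (median 8.43) (-1.49 ± 0.30). Pthlh, parathyroid hormone-related protein, stood at 3.12 to 6.70 CPM in BRQ+PD-1 tumours (median 4.17), against 7.84 to 15.3 CPM in IgG2a tumours (median 12.7) (-1.39 ± 0.29). For Npl, Gap43 and Pthlh the groups did not overlap, and each was called in all fits that left out 1 tumour. Agtr2, an angiotensin receptor, averaged 0.729 ± 0.440 CPM in BRQ+PD-1 and 3.53 ± 2.19 CPM in IgG2a (-2.25 ± 0.52). The noncoding transcript Rab26os averaged 0.568 ± 0.290 CPM in BRQ+PD-1 and 1.85 ± 0.799 CPM in IgG2a (-1.71 ± 0.35). The noncoding transcript Dnm3os averaged 16.4 ± 4.91 CPM in BRQ+PD-1 and 33.0 ± 14.2 CPM in IgG2a (-0.98 ± 0.25), and reads of both may be shared with an opposite-strand gene.

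Several of the largest falls moved with the muscle-rich libraries. With a muscle covariate added to the edgeR fit, 318 of the 398 rises and 105 of the 229 falls were called again. Klf15, a metabolic transcription factor, stood at 0 to 0.155 CPM in BRQ+PD-1 tumours (median 0.0394), against 0 to 9.33 CPM in IgG2a tumours (median 0.360) (-5.57 ± 1.55). Mt3, a metallothionein, stood at 0 to 0.425 CPM in BRQ+PD-1 tumours (median 0.0221), against 0.207 to 8.94 CPM in IgG2a tumours (median 0.442) (-4.38 ± 1.24). Stac3, a protein of muscle excitation, stood at 0.466 to 2.13 CPM in BRQ+PD-1 tumours (median 1.08), against 1.31 to 46.5 CPM in IgG2a tumours (median 1.98) (-3.47 ± 0.98). The high IgG2a values were those of the muscle-rich tumours. Without those libraries Mt3 had a log2 fold change of -1.67, Stac3 of -0.60, Gstp2, a glutathione transferase, of -0.73 and Cox7a1, a cytochrome oxidase subunit of muscle, of -0.79. None of these was called by edgeR, and Klf15 did not pass the filter. Over the called genes, 0 of 398 rises and 7 of 227 falls tested in both fits shrank to less than 0.5 of their size without the muscle-rich libraries. No member of the skeletal muscle list was called by edgeR or limma voom, but DESeq2 called 12 of 16 lower, and 14 had an unadjusted edgeR p under 0.05. The list median was -6.01 with these libraries and 0.86 without them. Acta2, the actin of smooth muscle, stood at 37.8 to 160.0 CPM in BRQ+PD-1 tumours (median 141), against 161 to 433 CPM in IgG2a tumours (median 304) (-1.28 ± 0.36), called in 2 of 12 fits that left out 1 tumour. Actg2, another smooth muscle actin, averaged 1.70 ± 0.756 CPM in BRQ+PD-1 and 9.19 ± 9.28 CPM in IgG2a (-2.47 ± 0.59). Neither actin was called by edgeR without the muscle-rich libraries, where Acta2 had -0.92 ± 0.39, adjusted p = 0.241, and Actg2 -1.70 ± 0.46, adjusted p = 0.0561.

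**Figure D5:**
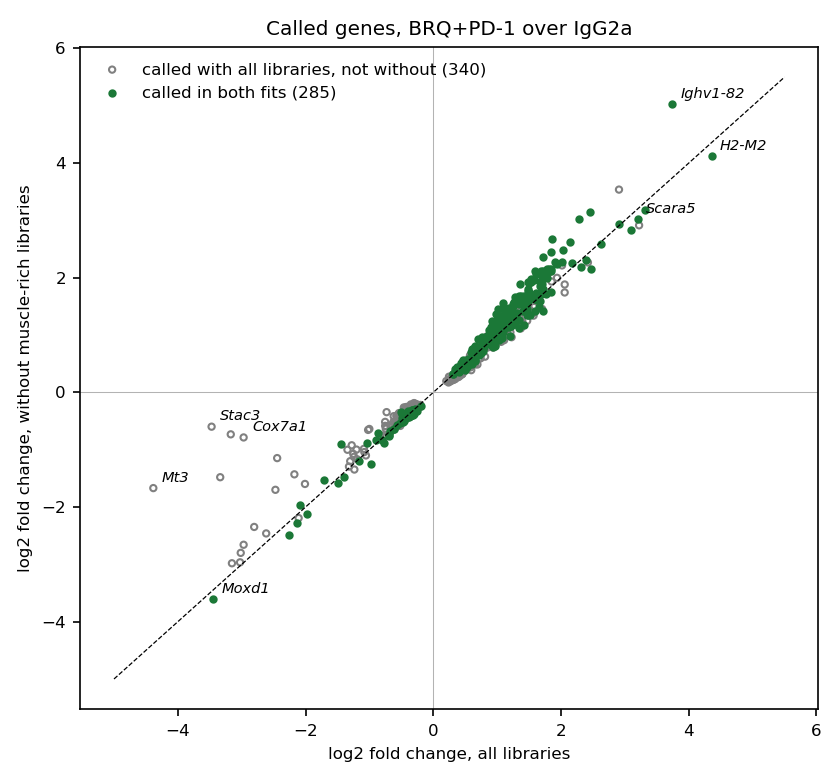
Log2 fold change of the genes called with all libraries, in BRQ+PD-1 over IgG2a tumours, with all 24 libraries (x axis) and without the 4 muscle-rich libraries (y axis); green points are called in both fits (285). Rises lie along the line of equal change, and falls such as Mt3, Stac3 and Cox7a1 lie toward zero.

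Against the other groups, no gene was called between BRQ+PD-1 and BRQ+IgG2a by edgeR over 16029 genes (1168 had an unadjusted p under 0.05). DESeq2 called 2 genes and limma voom with quality weights 612, and without BRQ+IgG2a replicate 5 edgeR called 65. Cd274 averaged 50.3 ± 11.4 CPM in BRQ+PD-1, 52.1 ± 23.8 CPM in BRQ+IgG2a, 33.5 ± 6.99 CPM in PD-1 and 19.2 ± 6.93 CPM in IgG2a (SD, n = 6 each). Gbp2 averaged 287 ± 61.2 CPM in BRQ+PD-1, 331 ± 137 CPM in BRQ+IgG2a, 199.6 ± 57.8 CPM in PD-1 and 99.6 ± 48.2 CPM in IgG2a. For Cd274 the log2 difference of BRQ+PD-1 from BRQ+IgG2a was -0.05 ± 0.27 (SE), for Sesn3 0.21 ± 0.15 and for Itga1 0.60 ± 0.16. List medians of this difference were -0.59 for T cells, -0.60 for cytotoxic lymphocytes and NK cells and -0.56 for type I interferon-stimulated genes. They were -0.45 for immunity-related GTPases, -0.36 for MHC class II and -0.34 for guanylate-binding proteins. Those of mast cells (0.48) and of B and plasma cells (0.02) were positive. No member of these lists was called by edgeR. A p that misses the threshold does not show that these groups were alike.

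Between BRQ+PD-1 and PD-1 tumours edgeR called 808 genes (5.04%), 382 higher (2.38%) and 426 lower (2.66%), and 502 (3.1%) without the muscle-rich libraries, 266 higher (1.64%) and 236 lower (1.46%). Genes were ranked here among those called with a mean of 1 CPM or more over the BRQ+PD-1 and IgG2a tumours, not the PD-1 tumours. Genes low in those groups were thus left out. Lrrc4b, a synaptic adhesion protein gene, had the largest rise among them, averaging 1.92 ± 0.809 CPM in BRQ+PD-1 and 0.116 ± 0.0985 CPM in PD-1. Scara5 (3.14 ± 0.52, adjusted p = 0.00228) and H2-M2 (3.12 ± 0.79, adjusted p = 0.0255) followed. Among the same genes the largest falls were Moxd1 (-3.58 ± 0.83, adjusted p = 0.0158), Padi4, a citrullinating enzyme of neutrophils (-3.20 ± 0.63, adjusted p = 0.00589), and Slc9b2, a sodium-proton exchanger (-3.09 ± 0.81, adjusted p = 0.0294). The 11 guanylate-binding proteins had a median of 0.45 in that comparison, and 15 of 25 ribosome biogenesis genes were lower (median -0.40). The tests share the BRQ+PD-1 tumours, so the counts are not independent of each other.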

How the data were processed

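RNA of each tumour was purified on RNeasy columns and sequenced as libraries made by Novogene, per the labels' protocols. The submitters' processing notes name the build GRCm39 with HISAT2 2.2.1 and StringTie 2.2.1, besides Trim Galore 0.6.7, MultiQC 1.11 and FastQC 0.11.8. Not given in the sources used here are the read counter, its annotation and whether it used strand. Whole-number counts of 55414 Ensembl genes, not normalized, were deposited by the authors, and every result comes from these counts; the deposited FPKM and TPM values of weakly expressed genes were not used. Columns were matched to samples by title.

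Names came from the GENCODE M21 table through the Ensembl IDs (52081 genes matched, 15980 of the 16029 tested), and no coordinates were taken from it. CPM are counts scaled to the library total. Genes were tested with edgeR 4.0.16 in R 4.3.3 (TMM factors, filterByExpr by group, quasi-likelihood F test with robust dispersion) in the 24 libraries of 4 groups, fitting group alone, which left 20 residual degrees of freedom. Genes were called at a Benjamini-Hochberg adjusted p under 0.05 across all genes tested. The SE was taken as the size of the log2 fold change over the square root of its F. P-values reflect variation among tumours, which the labels number but do not tie to litters or days. The test was checked on simulated counts.

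Gene lists (42 lists, 629 genes, 594 tested) are described by counts of called members and medians, with no test of a list. A member passes the filter if high in 1 group, so members that did not pass are not counted. The comparisons, lists and members were chosen with earlier results of these data known. Named genes were the 8 largest rises and falls at a mean of 1 CPM or more with and without the muscle-rich libraries (Acta1 at 1000 CPM or more), fixed pathway genes, and up to 3 called or the 2 most abundant members of each list; genes outside this rule are said to be chosen after their values were seen. Tried besides were DESeq2 1.42.0, no expression filter, relative log expression factors, limma 3.58.1 voom with quality weights, a replicate block, no robust estimation, the groups compared alone, a muscle covariate, no muscle-rich libraries and each tumour left out. Some members counted in the lists are not reported here by name.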

Additional observations from a re-analysis of the deposited data

Results flagged for a closer look

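Among 244 pairs of a named gene and a group, 16 had 1 tumour standing apart from the other 5 by Dixon's criterion; chance gives about 1 in 20 such pairs. BRQ+PD-1 replicate 1 was low for Gap43 (1.24 CPM), Dhodh (7.88 CPM), Col3a1 (2667 CPM) and Acta2 (37.8 CPM). BRQ+PD-1 replicate 4 was high for Psph (27.8 CPM) and Pcna (193 CPM) and low for Fn1 (1934 CPM), and replicate 3 was high for C1s1 (136 CPM). IgG2a replicate 2, a muscle-rich tumour, was high for Gbp7 (81.8 CPM), Parp14 (78.2 CPM), Parp9 (61.2 CPM), H2-M3 (46.0 CPM) and Klrc1 (3.80 CPM) and low for Cad (78.5 CPM). IgG2a replicate 1 was high for Dhodh (17.7 CPM), and IgG2a replicate 4 for Flt1 (156 CPM).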

How the results depend on the processing

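For BRQ+PD-1 against IgG2a the number of called genes moved by over 1.5 times under these alternatives: no expression filter gave 297 (202 higher, 95 lower), DESeq2 1510 (699 higher, 811 lower), limma voom 1444 (921 higher, 523 lower), the groups compared alone 371 (275 higher, 96 lower) and no muscle-rich libraries 404. Leaving out 1 tumour gave 256 to 783. Relative log expression factors gave 625 (381 higher, 244 lower), no robust estimation 639 and a muscle covariate 599. For BRQ+PD-1 against BRQ+IgG2a, DESeq2 gave 2, limma voom 612 (443 higher, 169 lower) and leaving out 1 tumour 0 to 65. For BRQ+PD-1 against PD-1, no expression filter gave 431, DESeq2 1338, limma voom 2181, the groups alone 360, no muscle-rich libraries 502 and leaving out 1 tumour 399 to 1083. Deviations from the group means in same-numbered BRQ+PD-1 and IgG2a tumours had correlations of -0.49 to 0.51 over the most variable genes. These correlations cannot show whether same-numbered tumours shared a cage or day, which the labels do not state. With a replicate block the counts were 285 (216 higher, 69 lower), 0 and 411. The cause of each difference was not tested.

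Genes whose sign turned were not called with all libraries. Under limma voom the log2 fold change was -0.30 for Ptgs2, -0.14 for Mki67, -0.15 for Top2a, -0.054 for Scd2, -0.080 for Fasn and 0.0053 for Fabp4. With a muscle covariate the log2 fold change was -0.29 for Ptgs2, 0.064 for Rrm1, -0.086 for Pkm and 0.93 for Cfd. With no expression filter the log2 fold change was -0.0085 for mt-Co1 and -6.7e-05 for Pkm. Without the muscle-rich libraries the log2 fold change was 0.58 for Acta1, -0.0030 for Scd2, 1.22 for Myh4, 0.20 for Fabp4 and 1.33 for Cfd. Leaving out 1 tumour at a time gave -0.58 to 0.69 for Ptgs2, -0.058 to 0.25 for Mki67, -0.034 to 0.11 for Cmpk1, -0.16 to 0.019 for Rrm1, -0.049 to 0.17 for Top2a, -0.12 to 0.091 for mt-Co1, -0.059 to 0.089 for Pkm, -0.0049 to 0.13 for Scd2 and -0.11 to 0.048 for Col3a1. Of the other alternatives for single genes 2046 kept side and sign, 440 lost the call and 38 gained it. Depth was 19.1 to 29.4 M counts, so genes under about 1 CPM rest on few counts.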
